A study of Homo sapiens with 16 samples.

Results

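The 10 genes DLG2, TMEM126B, TMEM126A, CREBZF, SYTL2, CCDC83, PICALM, HIKESHI, ME3 and PRSS23 are neighbours on chromosome 11q14, out of 20356 genes in the count table. They were chosen by their read counts in monolayer cells, where DDX4-null libraries held little RNA of PICALM and some of its neighbours, and the question was where along the chromosome that drop begins and ends. The values of DDX4-null against control monolayers are therefore given below as a description with no test. RNA was sequenced from PC3, an established androgen-independent human prostate cancer cell line, in a study of the RNA helicase DDX4, a germ cell protein, in cancer cells. The 4 groups of 4 libraries were DDX4-null cells and control cells, both grown as monolayers, and DDX4-null and control xenograft tumors, that is, tumors the human cells formed in a host animal. The labels do not give how DDX4 was removed, whether a DDX4-null group is 1 clone, which host carried the tumors, or whether each library is a culture or an animal of its own. The p-values below thus rest on a spread between libraries that could be technical.

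PICALM encodes an adaptor that brings clathrin to membranes and helps endocytosed vesicles to form. Its neighbours work in other processes. HIKESHI carries heat shock protein HSP70 into the nucleus during heat stress, ME3 is a mitochondrial malic enzyme that makes NADPH, PRSS23 is a secreted serine protease and SYTL2 ties RAB27 vesicles to the plasma membrane. TMEM126A and TMEM126B take part in the assembly of respiratory complex I, CREBZF is a leucine zipper transcription regulator, and DLG2 is a membrane scaffold of the guanylate kinase family.

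The promoters of the 4 genes with the lowest relative levels in DDX4-null cells, and one from the edge of the region, are given to compare their start sites. EED, a core subunit of the Polycomb repressive complex PRC2, lies between PICALM and HIKESHI and is not among the 10 genes. The sequences are RefSeq windows on GRCh38.p14, each running from 250 bases before to 50 bases after a gene's start, read along the gene's own strand. A window was found for 9 of the 10 genes. Where a gene has several starts, the window with the most CpG sites was taken. Capitals mark matches, on either strand, to an E-box (CACGTG), an ETS motif (CCGGAAGT), a CCAAT box (CCAAT, or ATTGG on the other strand) or a TATA box (TATAAA). PICALM lies at chr11:86069035-86069334 (minus strand), EED at chr11:86244503-86244802 (plus strand), HIKESHI at chr11:86301990-86302289 (plus strand), ME3 at chr11:86672126-86672425 (minus strand) and TMEM126B at chr11:85628323-85628622 (plus strand).
PICALM: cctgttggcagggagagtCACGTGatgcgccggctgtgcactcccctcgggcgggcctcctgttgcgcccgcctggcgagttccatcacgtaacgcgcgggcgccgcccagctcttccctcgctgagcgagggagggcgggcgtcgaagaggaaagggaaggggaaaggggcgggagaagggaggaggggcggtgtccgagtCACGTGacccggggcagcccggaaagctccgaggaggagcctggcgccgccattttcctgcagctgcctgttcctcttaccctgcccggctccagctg
EED: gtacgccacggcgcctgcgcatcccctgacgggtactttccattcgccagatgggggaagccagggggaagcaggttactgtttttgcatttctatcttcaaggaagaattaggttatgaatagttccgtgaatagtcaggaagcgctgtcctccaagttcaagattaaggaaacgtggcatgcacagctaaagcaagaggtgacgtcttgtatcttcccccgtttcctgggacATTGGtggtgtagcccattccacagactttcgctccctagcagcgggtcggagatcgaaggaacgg
HIKESHI: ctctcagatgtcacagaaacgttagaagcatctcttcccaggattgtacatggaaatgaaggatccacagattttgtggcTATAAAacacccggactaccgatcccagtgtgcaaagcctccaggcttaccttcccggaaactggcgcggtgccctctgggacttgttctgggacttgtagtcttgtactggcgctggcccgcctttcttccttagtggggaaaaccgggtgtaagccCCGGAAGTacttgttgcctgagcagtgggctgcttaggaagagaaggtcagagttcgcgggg
ME3: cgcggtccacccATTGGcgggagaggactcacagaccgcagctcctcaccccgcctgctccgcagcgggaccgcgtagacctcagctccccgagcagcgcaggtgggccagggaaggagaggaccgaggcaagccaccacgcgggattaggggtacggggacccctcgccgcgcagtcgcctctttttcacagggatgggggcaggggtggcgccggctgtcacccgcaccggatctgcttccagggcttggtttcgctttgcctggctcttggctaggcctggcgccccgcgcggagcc
TMEM126B: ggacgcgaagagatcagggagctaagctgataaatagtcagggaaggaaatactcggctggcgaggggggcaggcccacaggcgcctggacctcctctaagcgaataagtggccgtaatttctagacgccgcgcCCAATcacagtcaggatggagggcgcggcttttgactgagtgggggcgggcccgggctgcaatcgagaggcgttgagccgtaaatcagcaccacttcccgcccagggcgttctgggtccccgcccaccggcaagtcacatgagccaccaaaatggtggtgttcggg

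None of the searched motifs was found in all 4 of the PICALM, EED, HIKESHI and ME3 windows. PICALM holds 2 E-boxes, which 7.26% of 35116 RefSeq windows of this length have at least once. HIKESHI holds 1 ETS match (4.14% of windows) and 1 TATA box (11.5%), and EED, ME3 and TMEM126B hold 1 CCAAT box each (34.6%). Of the 9 genes with a window, 4 have a CCAAT box, but DLG2 and TMEM126B share the same one, 1 has an NRF1 motif (GCGCATGC, 3.05% of windows) and 0 have a CRE (TGACGTCA, 1.85%). CpG sites number 29 in the PICALM window, 16 in EED, 12 in HIKESHI and 28 in ME3, against a median of 14 over all windows. PICALM has 2 listed starts and ME3 has 3, and their windows were picked for the most CpG sites, which raises them against that median. EED and HIKESHI have 1 listed start each. One DLG2 start lies head to head with TMEM126B, and their windows share 299 bases on opposite strands. A match is a run of letters and not a measured binding site. On this assembly the PICALM and ME3 starts lie 603 kb apart, the CREBZF and PICALM starts 386 kb and the PICALM and FZD4 starts 886 kb.

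Library totals ran from 12204254 to 25443952 counts. Levels are counts per 1000000 reads (CPM) scaled by TMM over all 16 libraries, and 3 counts, the most that a count of 0 allows, are 0.11 to 0.265 CPM in a library. DDX4 itself had 0 to 4 counts in DDX4-null cells, 0 to 5 in control cells, 2 to 4 in DDX4-null tumors and 2 to 5 in control tumors, so its RNA does not check the labels. All 6 epithelial and PC3 markers (KRT8, KRT18, KRT19, EPCAM, CDH1 and VIM) were at 1 CPM or more in all 4 groups, while the androgen-driven KLK2 had 0 counts in all of them. The 6 fibroblast markers summed to 10900 CPM in DDX4-null tumor 1, to 1650 to 1900 CPM in the other DDX4-null tumors and to 1370 to 1870 CPM in control tumors, against at most 58.1 CPM in any monolayer library. The leukocyte markers summed to 9.62 to 42.8 CPM in DDX4-null tumors and 10.4 to 16.4 CPM in control tumors, with the T cell marker CD3E at 0 in DDX4-null tumors. Bulk RNA cannot tell apart fewer cells with a gene's RNA and less of that RNA per cell.

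DDX4-null monolayer cells held a small share of the control level for a block of successive genes. Going outward from PICALM, genes at a log2 change of -1 or lower formed a block until 2 successive tested genes lay above that limit. The block ran from SYTL2 through PICALM, EED, HIKESHI, ME3 and PRSS23 to FZD4, a receptor for Wnt and Norrin, and so held 7 tested genes, 5 of them among the 10. Within it PICALM, EED, HIKESHI and ME3 stood at 1.46% to 2.89% of the control-cell level. Of the 9 genes of the 10 that had enough counts to be fitted, 5 were at a log2 change of -1 or lower, as were 8.66% of all 13006 genes, and 3 were at -4 or lower, as were 0.515%. At 1 or higher there was 1, DLG2, where 13.0% of all genes were. These shares describe a contrast that chose the genes, and nothing is read from them.

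**Figure D1:**
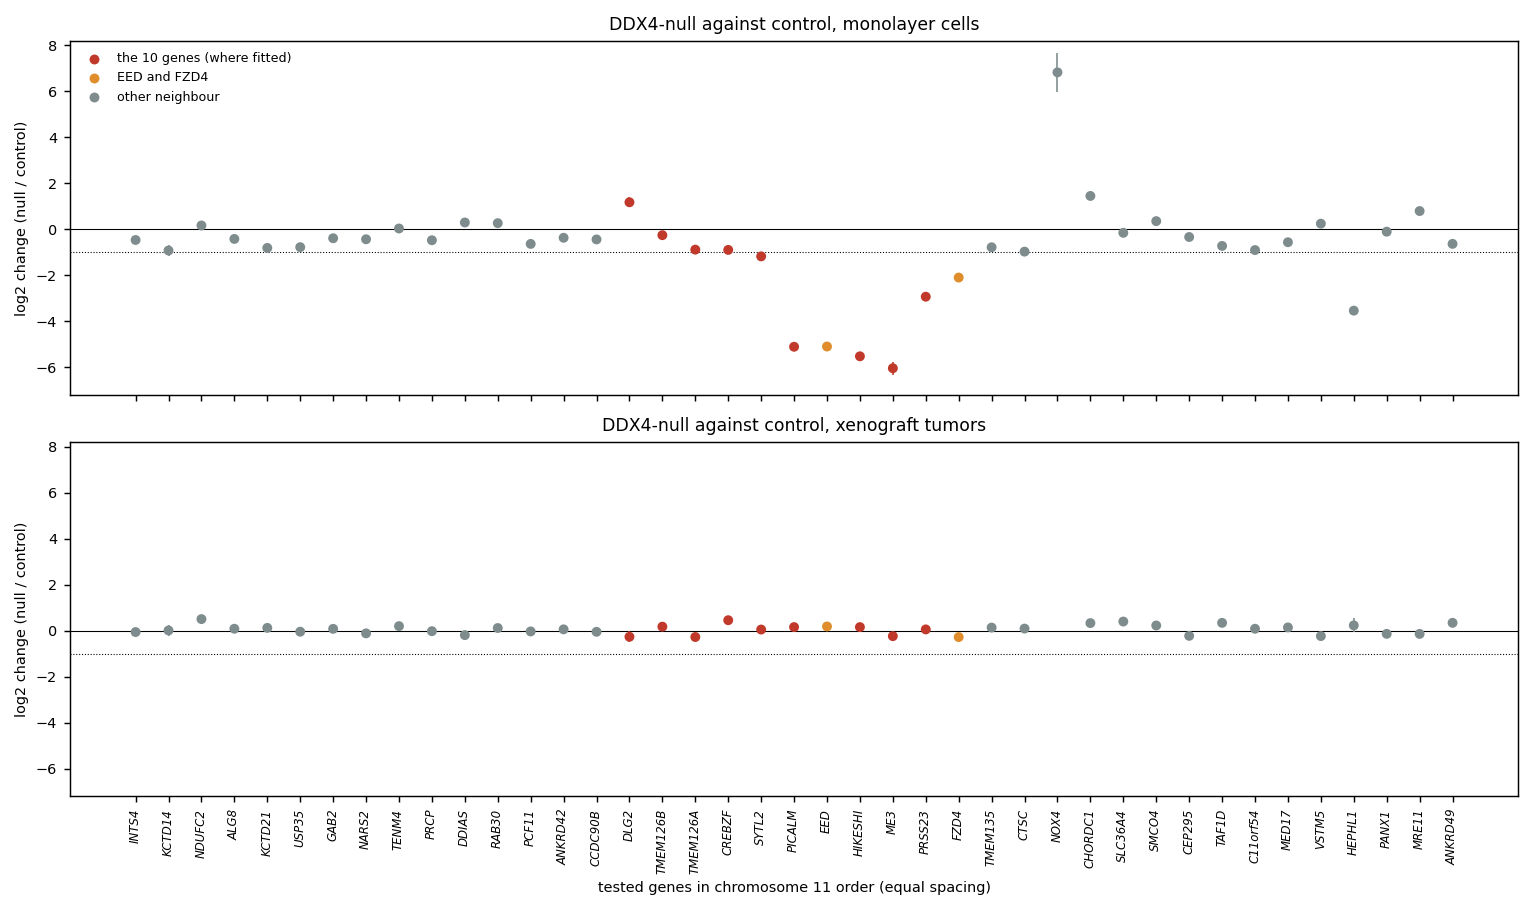
Log2 change of DDX4-null against control libraries (vertical axis, with SE bars) for the tested genes within 20 places of PICALM, in chromosome order at equal spacing, in monolayer cells (top) and xenograft tumors (bottom), with the 10 genes in red where fitted and EED and FZD4 in orange. In cells the values reach -6.04 at ME3 and lie above -1 past FZD4 except at HEPHL1, which is at -3.54 (NOX4 rests on 0 control counts, so its height depends on the fit), while in tumors the 9 measured genes of the 10 lie between -0.28 and 0.45.

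PICALM was at 3.49, 4.85, 4.55 and 4.87 CPM in the 4 DDX4-null cell libraries, against 154.2, 146, 159.5 and 152.7 CPM in the 4 control cell libraries. Every DDX4-null cell library was far below every control one. The log2 change was -5.11 ± 0.12 (SE), or 2.89% of control with an exact binomial 95% interval of 2.58% to 3.23%, which covers counting error only. The signal was low but not at the floor, with 65, 82, 75 and 105 PICALM counts in DDX4-null cells.

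EED, the next tested gene, had 0.483, 0.355, 0.668 and 0.556 CPM in DDX4-null cells, against 18.2, 18.2, 17.0 and 18.2 CPM in control cells. Its log2 change was -5.09 ± 0.18, and its share of control was 2.89% (2.04% to 4.0%), the same percentage as PICALM. HIKESHI had 0.805, 0.709, 0.607 and 0.556 CPM in DDX4-null cells, against 32.3, 25.7, 26.7 and 38.9 CPM in control cells. The groups were well apart for both genes. The HIKESHI log2 change was -5.52 ± 0.19, or 2.16% of control (1.59% to 2.86%).

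ME3, the malic enzyme, was the lowest of the 10 relative to control. It had 3, 5, 0 and 5 counts in the DDX4-null cell libraries, which is 0.161, 0.296, 0 and 0.232 CPM, against 11.5, 10.7, 10.7 and 15.4 CPM in control cells. The log2 change was -6.04 ± 0.29, or 1.46% of control (0.776% to 2.52%). One DDX4-null library held no ME3 read and the others were near the floor. CCDC81, which lies between HIKESHI and ME3 and was too low to be fitted, had 0 counts in all 4 DDX4-null cell libraries, against 4, 4, 10 and 5 counts in control cells. Taking the control counts as exact and allowing 3 counts over the DDX4-null group, CCDC81 was at least 9.01-fold lower there, and the exact interval, which includes the counting error of both groups, ends at 14.8% of control.

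On the far side of ME3 the difference was smaller at PRSS23 and smaller again at FZD4, with the larger step from ME3 to PRSS23. The protease gene PRSS23 had 15.8, 17.5, 13.7 and 15.8 CPM in DDX4-null cells, against 122.4, 111.9, 112.6 and 131.4 CPM in control cells. Its log2 change was -2.93 ± 0.11, or 13.2% of control (12.4% to 14%). FZD4 had 83.5, 67.3, 80.7 and 79.7 CPM in DDX4-null cells, against 344.2, 351.2, 352.3 and 283.6 CPM in control cells. DDX4-null cells thus kept more of the FZD4 level, with a log2 change of -2.10 ± 0.11 or 23.4% of control. PRSS23 and FZD4 overlap on opposite strands in the gene annotation used for the order, and the strand setting of the counting is not known from the sources used here, so some reads of one could be counted on the other.

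The next genes lay just outside the limit. TMEM135 averaged 27.2 ± 2.64 CPM in DDX4-null cells and 46.9 ± 5.21 CPM in control cells (SD, n = 4 each), a log2 change of -0.78. CTSC, a lysosomal dipeptidyl peptidase, averaged 162.6 ± 13.6 CPM in DDX4-null cells and 318.4 ± 41.2 CPM in control cells, a log2 change of -0.97. CTSC is so close to -1 that the far edge moves to it when DDX4-null cell library 2, control cell library 2 or control cell library 3 is left out, which gives 8 genes in the block. The next tested genes past CTSC were higher or little different in DDX4-null cells. NOX4, an NADPH oxidase, had 11, 17, 10 and 23 counts in DDX4-null cells and 0 in every control cell library. Taking the DDX4-null counts as exact and allowing 3 counts over the control group, that is at least 17.3-fold more. CHORDC1, an HSP90 co-chaperone, averaged 176 ± 28.1 CPM in DDX4-null cells and 64.4 ± 7.81 CPM in control cells. SLC36A4, the fifth gene past FZD4, was at -0.15 with overlapping groups.

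On the near side of PICALM the change was abrupt between SYTL2 and PICALM. SYTL2 had 32.7, 32.0, 33.5 and 35.5 CPM in DDX4-null cells, against 81.7, 70.9, 76.3 and 73.2 CPM in control cells. The groups did not overlap, but SYTL2 stayed at 44.3% of control (42.2% to 46.5%), with a log2 change of -1.18 ± 0.095. CCDC83, which lies between SYTL2 and PICALM, had 2, 2, 4 and 2 counts in DDX4-null cells and 0, 0, 2 and 0 in control cells. It was too low to be fitted, and its groups overlapped. Its level was 425% of control, with an exact interval of 90.6% to 3990% that covers counting error only. That interval starts above the 2.89% of PICALM, but it rests on 2 control counts, so CCDC83 places the edge only loosely. CCDC89, between CREBZF and SYTL2, was also too low to be fitted. It had 0 counts in DDX4-null cells and 1, 0, 1 and 0 in control cells. Its interval, 0% to 453% of control, cannot place the edge. SYTL2 is the gene just inside the limit of -1. CREBZF, at -0.89 ± 0.11, and TMEM126A, at -0.88 ± 0.14, are the ones just outside it.

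CREBZF had 24.7, 29.9, 29.2 and 27.0 CPM in DDX4-null cells, against 49.6, 51.7, 44.6 and 60.0 CPM in control cells, with no overlap. TMEM126A had 19.0, 14.8, 13.9 and 19.8 CPM in DDX4-null cells, against 34.9, 25.8, 27.0 and 37.1 CPM in control cells, also with no overlap. Its paralog TMEM126B, the next gene along, had 34.3, 39.9, 36.1 and 49.1 CPM in DDX4-null cells, against 47.8, 41.5, 43.0 and 58.2 CPM in control cells. The TMEM126B groups overlapped, and its log2 change was -0.25 ± 0.13. Reads shared by these paralogs could be counted on either.

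DLG2, the outermost of the 10 on this side, was higher in DDX4-null cells. It had 3.44, 3.37, 4.67 and 3.29 CPM there, against 1.86, 1.08, 1.93 and 1.55 CPM in control cells. The groups did not overlap, and the log2 change was 1.18 ± 0.21. Of the 9 fitted genes, 7 were lower in DDX4-null cells with no overlap of the groups, as were 28.5% of all genes, 1 was higher with no overlap, as were 31.0%, and 1 overlapped, as did 40.6%.

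**Figure D2:**
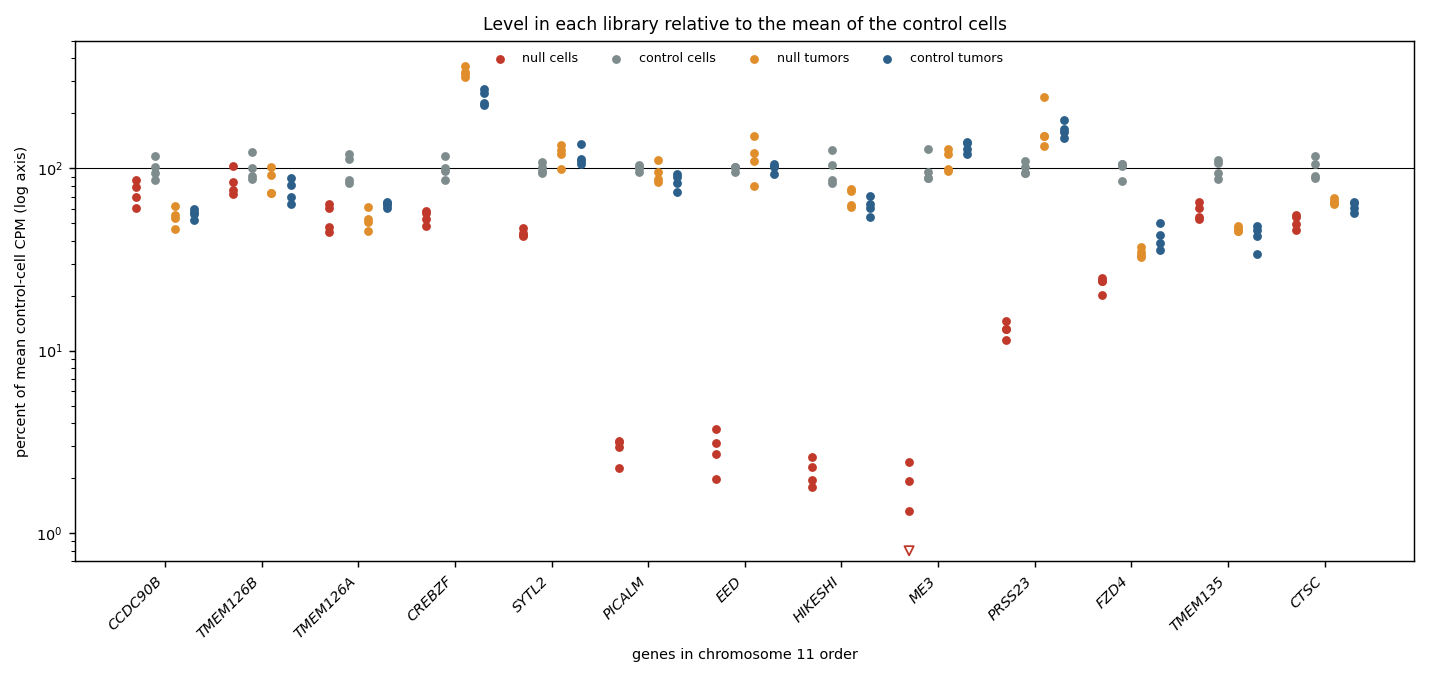
Level in each library as a percent of the mean control-cell CPM (log axis) for genes from CCDC90B to CTSC in chromosome order, with 1 point per library and DDX4-null groups left of their control groups. The DDX4-null cells lie near 1% to 4% from PICALM to ME3, and the open triangle stands for the 1 DDX4-null cell library with no ME3 read.

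Beyond the 10 genes, the median changes on both sides were small, with single genes past 1 in either direction. The 20 tested genes before DLG2, from PAK1 on, had a median log2 change of -0.42, and 0 of them were at -1 or lower, while 1, the kinase gene PAK1, was at 1 or higher. The 20 after PRSS23, as far as CWC15, had a median of -0.32, and 2 were at -1 or lower, FZD4 and the ferroxidase gene HEPHL1. HEPHL1, at -3.54, was lower relative to control than SYTL2, PRSS23 and FZD4 of the block. At 1 or higher were 2 of the genes after, NOX4 and CHORDC1. By edgeR's quasi-likelihood test with Benjamini-Hochberg adjustment, 14 of the genes before fell and 2 rose, and 10 of those after fell and 3 rose, where 32.3% of all genes fell and 35.0% rose. The 5 nearest tested genes before DLG2 were CCDC90B at -0.44, ANKRD42 at -0.37, PCF11 at -0.63, RAB30 at 0.27 and DDIAS at 0.30. Genes of chromosome 11 had a median log2 change of -0.27 over 741 tested genes, against 0.021 for all genes. Of the 741, 8 were at -4 or lower, 4 of which are PICALM, EED, HIKESHI and ME3. The others were MUC5AC and MUC5B, which encode secreted mucins, the cathepsin gene CTSF and the sorting nexin gene SNX19.

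Over the whole genome, PICALM to ME3 was the 1 run of 4 or more successive tested genes at -4 or lower in DDX4-null cells. There were 6 runs of 2 or more such genes in all. In the other direction, at 4 or higher, there were 37 runs of 2 or more genes. Of these, 3 had 4 or more genes, and the longest had 6. At the milder limit of -1, the block was 1 of 5 runs of 7 or more genes, so runs of that length were also found elsewhere. At 1 or higher there were 3 runs of 7 or more genes. The lowest running median over 5 successive genes of chromosome 11 was -5.11, from SYTL2 to ME3. Away from the block the lowest was -2.40, and it ended in the mucin genes MUC5AC and MUC5B. The highest running median over 5 genes away from the block was 7.11, the value of a gene with an SE of 0.84. That window also held a gene at -0.52, so it was not an unbroken rise. Large rises were thus also found on this chromosome, but their height depends on the fit where control counts are near 0.

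**Figure D3:**
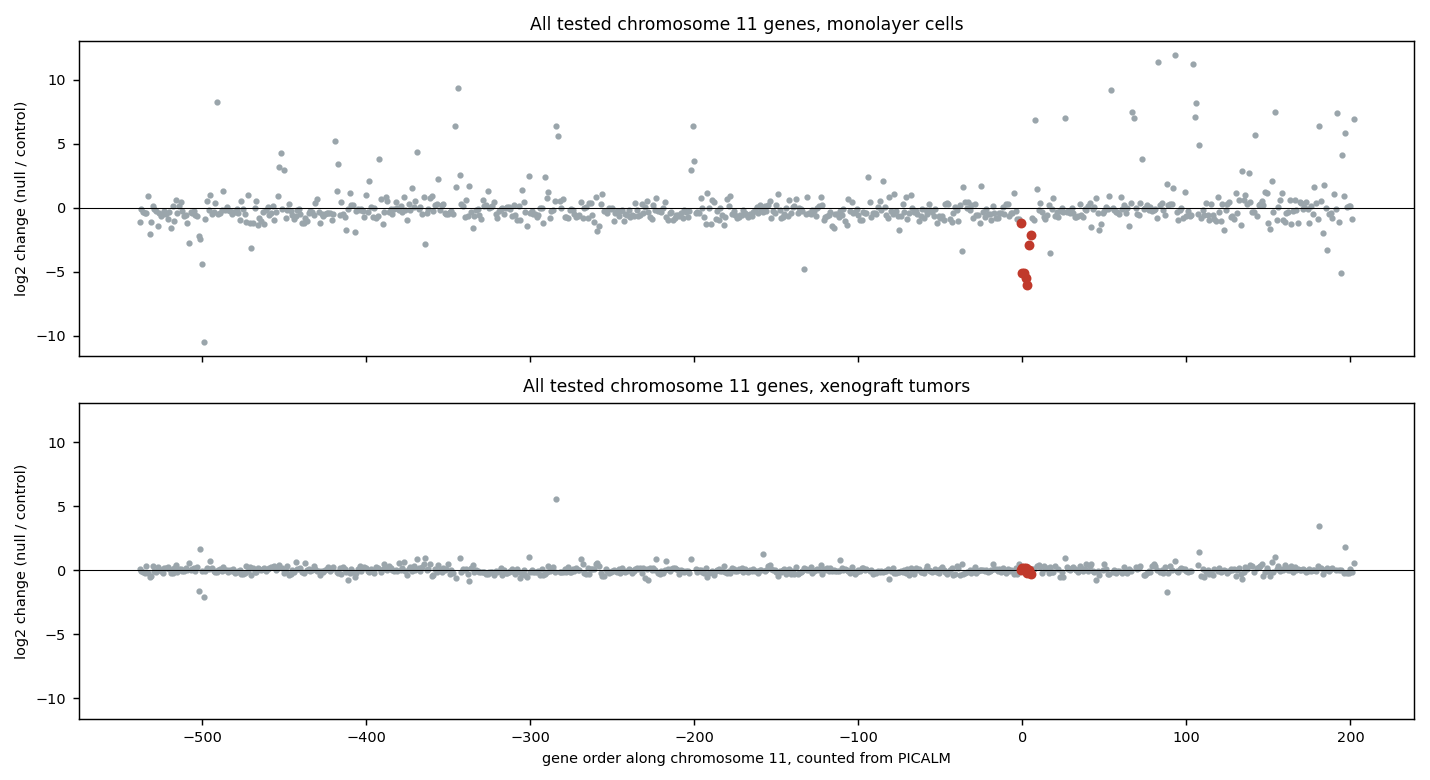
Log2 change of DDX4-null against control libraries for all tested genes of chromosome 11 in gene order counted from PICALM, in monolayer cells (top) and xenograft tumors (bottom), with the 7 genes from SYTL2 to FZD4 in red. In cells the red points reach -6.04 and in tumors they lie between -0.28 and 0.18, while the height of points for genes with a group at 0 counts depends on the fit.

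The tumor libraries were not part of the monolayer contrast that chose the genes, although earlier results of these data were known when choosing. In tumors the DDX4-null and control libraries overlapped for 8 of the 9 fitted genes, as for 87.4% of all genes. PICALM had 170.6, 128.5, 134.5 and 146.5 CPM in DDX4-null tumors, against 142.5, 114.1, 126.4 and 137.9 CPM in control tumors. The groups overlapped, and the log2 change was 0.15 ± 0.11 with a 95% interval of -0.08 to 0.38 (edgeR adjusted p = 0.422). HIKESHI had 23.9, 19.0, 19.4 and 23.1 CPM in DDX4-null tumors, against 21.7, 18.7, 19.6 and 16.7 CPM in control tumors. Its log2 change was 0.15 ± 0.12 (interval -0.10 to 0.41, edgeR adjusted p = 0.464), again with overlapping groups.

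ME3 had 12.0, 15.4, 11.6 and 14.3 CPM in DDX4-null tumors, against 16.6, 16.8, 15.3 and 14.5 CPM in control tumors. Its log2 change was -0.24 ± 0.12 (interval -0.51 to 0.03, edgeR adjusted p = 0.283). EED averaged 20.6 ± 5.19 CPM in DDX4-null tumors and 18.0 ± 0.997 CPM in control tumors, with a log2 change of 0.18 ± 0.16 (interval -0.17 to 0.53, edgeR adjusted p = 0.533). The lower ends of these intervals lie far above the log2 changes of -5.09 to -6.04 that the same 4 genes had in cells. CCDC81 had 4, 15, 13 and 7 counts in DDX4-null tumors and 7, 13, 11 and 7 in control tumors, so its reads were also present in both tumor groups.

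PRSS23 had 292.8, 180.1, 158.9 and 180.3 CPM in DDX4-null tumors, against 220.8, 189.8, 174 and 196.6 CPM in control tumors. DDX4-null tumor 1 was the highest of all 8, and it was also the library with the highest fibroblast marker sum. The log2 change was 0.05 ± 0.17 with all libraries (edgeR adjusted p = 0.881) and -0.17 without that tumor (edgeR adjusted p = 0.381). DDX4-null tumor 1 was the highest DDX4-null tumor for 6 of the 7 genes of the block, all but ME3. Without it PICALM stood at 0.07, EED at 0.04, HIKESHI at 0.11, ME3 at -0.19, SYTL2 at 0.00 and FZD4 at -0.31, with edgeR adjusted p from 0.162 to 0.993. The part of host cells in these levels was not tested, and the sources used here do not say whether host reads were removed.

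SYTL2 had 101.2, 95.5, 74.6 and 90.3 CPM in DDX4-null tumors, against 102.9, 79.5, 82.9 and 84.4 CPM in control tumors, with a log2 change of 0.05 ± 0.11 (edgeR adjusted p = 0.838). FZD4 averaged 114.7 ± 6.08 CPM in DDX4-null tumors and 139.3 ± 20.3 CPM in control tumors, with a log2 change of -0.28 ± 0.10 (edgeR adjusted p = 0.158), the smallest adjusted p of the 7 genes of the block. By edgeR 0 of these 7 passed the threshold, as by DESeq2, and 1, FZD4, had an unadjusted p under 0.05 in each. Of all genes, 2.09% passed the threshold by edgeR and 21.3% had an unadjusted p under 0.05.

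CREBZF was the exception among the 10. It had 168.9, 162.5, 186.5 and 172.4 CPM in DDX4-null tumors, against 140.0, 114.3, 117.2 and 132.7 CPM in control tumors. Every DDX4-null tumor was above every control tumor. CREBZF rose by a log2 change of 0.45 ± 0.089 (interval 0.26 to 0.65, edgeR adjusted p = 0.0321). Scaled to library totals alone, the log2 change was 0.39 and the adjusted p was 0.068. Over all alternatives the log2 change was 0.39 to 0.51 and the adjusted p 0.000231 to 0.13. The call was lost on leaving out DDX4-null tumor 2, 3 or 4 (adjusted p = 0.0505, 0.0703 and 0.0623) or control tumor 2 or 3 (adjusted p = 0.104 and 0.13). Without DDX4-null tumor 1, the one with the most fibroblast marker RNA, the log2 change was 0.47 (adjusted p = 0.0341).

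CREBZF was thus the 1 called gene of the 9 fitted in tumors, where 2.09% of all 12942 genes were called, 0.981% rising and 1.1% falling. Of the 9, 0 fell by edgeR or DESeq2, and 1, TMEM126A, was lower with an unadjusted p under 0.05 in each. By edgeR 21.3% of all genes had an unadjusted p under 0.05. The CREBZF groups were the 1 pair that did not overlap with DDX4-null higher, as for 5.59% of all genes, 0 were lower without overlap, as for 7.02%, and 8 overlapped, as for 87.4%. The other 3 fitted genes did not pass the threshold. TMEM126A had 16.4, 14.1, 15.8 and 19.2 CPM in DDX4-null tumors, against 19.6, 18.9, 20.5 and 20.2 CPM in control tumors, and its log2 change was -0.28 ± 0.11 (edgeR adjusted p = 0.178). TMEM126B was at 0.17 ± 0.13 (edgeR adjusted p = 0.479) and DLG2 at -0.27 ± 0.23 (edgeR adjusted p = 0.529). CCDC83 was too low to be fitted, with 2, 1, 0 and 1 counts in DDX4-null tumors and 3, 5, 3 and 3 in control tumors. The median log2 change of the 9 was 0.05, against -0.001 for all genes.

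Among the neighbours, 0 of 20 before DLG2 were called in tumors by edgeR or DESeq2, and 1, NDUFC2, had an unadjusted p under 0.05 in each. After PRSS23, 1 of 18 was called by edgeR, against 2.09% of all genes. This was AMOTL1, which encodes an angiomotin-like junction protein and fell by 0.49 on the log2 scale (edgeR adjusted p = 0.00949). DESeq2 called AMOTL1 and also TAF1D, which rose. Of the 18, 3 were lower and 4 higher with an unadjusted p under 0.05 by edgeR, where 21.3% of all genes had one. No run of 5 or more successive genes at a log2 change of -1 or lower, nor of 2 or more at -4 or lower, was found in DDX4-null tumors (0 in each case).

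**Figure D4:**
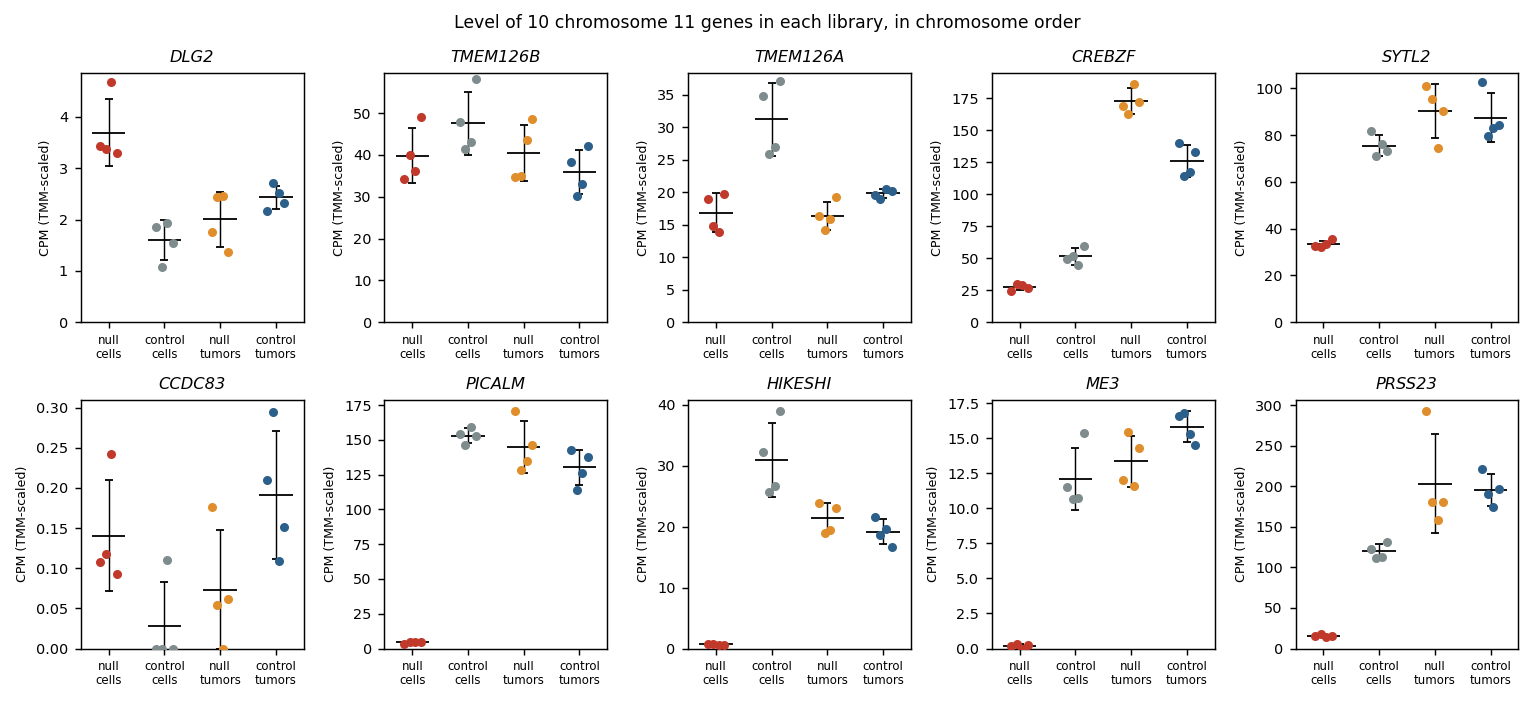
CPM of each of the 10 genes in every library (linear axes from 0), with DDX4-null cells, control cells, DDX4-null tumors and control tumors from left to right, 1 point per library, and the mean and SD of 4 libraries in black. PICALM, HIKESHI and ME3 lie near 0 in DDX4-null cells alone, and CREBZF is higher in both tumor groups than in either group of cells.

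The levels of all 4 groups can be set side by side. DDX4-null tumors against DDX4-null cells and control tumors against control cells share the monolayer libraries that chose the genes, so these values have no test. PICALM was 5.04 ± 0.14 higher on the log2 scale in DDX4-null tumors than in DDX4-null cells, and -0.23 ± 0.088 in control tumors against control cells. HIKESHI gave 5.0 ± 0.18 for DDX4-null tumors against cells and -0.69 ± 0.13 for control tumors against cells. ME3 gave 6.20 ± 0.34 for the DDX4-null pair and 0.39 ± 0.13 for the control pair. Each of these genes thus had a low level in 1 group and levels within 1 log2 unit of each other in the other 3.

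PRSS23 was 3.70 ± 0.18 higher in DDX4-null tumors than cells and 0.71 ± 0.093 higher in control tumors than cells. CREBZF was 2.65 ± 0.10 higher in DDX4-null tumors than cells and 1.30 ± 0.10 higher in control tumors than cells. SYTL2 was 1.45 ± 0.11 higher for the DDX4-null pair and 0.21 ± 0.096 for the control pair. FZD4 was the other way, at 0.57 ± 0.098 for the DDX4-null pair and -1.25 ± 0.11 for the control pair. Among the 9 fitted genes, 6 were at a log2 of 1 or higher in DDX4-null tumors against cells (14.6% of all genes) and 3 of them at 4 or higher (1.7%). In control tumors against cells 1, CREBZF, was at 1 or higher (11.5%) and 0 were at -1 or lower (7.24%). An effect of growth as a tumor and a difference of cell population between the DDX4-null groups cannot be told apart here.

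The genes most like PICALM over the 16 libraries came from several chromosomes. Likeness was Pearson's r of log2(CPM + 0.5) over 12293 genes, and it is a description, since the libraries fall into 4 groups. The highest outside the 10 genes were EED (0.995), SNX19 on chromosome 11 (0.990), the palmitoyltransferase gene ZDHHC4 on chromosome 7 (0.990), the zinc finger gene ZNF571 on chromosome 19 (0.988) and C18orf25 on chromosome 18 (0.988). ZDHHC4 averaged 0.346 ± 0.0917 CPM in DDX4-null cells and 11.1 ± 0.971 CPM in control cells, against 14.2 ± 1.26 CPM in DDX4-null tumors and 14.3 ± 0.834 CPM in control tumors. A gene with low RNA in DDX4-null cells alone was therefore not limited to chromosome 11. A high r does not measure depth. C18orf25 averaged 15.7 ± 1.32 CPM in DDX4-null cells and 32.2 ± 1.35 CPM in control cells. ZNF571 averaged 1.48 ± 0.163 CPM in DDX4-null cells and 6.42 ± 0.1 CPM in control cells. Both kept more of the control level than PICALM did. Among the 10, HIKESHI had an r of 0.990, ME3 of 0.986, PRSS23 of 0.968, SYTL2 of 0.966, CREBZF of 0.769, TMEM126A of 0.404, TMEM126B of 0.122 and DLG2 of -0.786.

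Genes that work with these neighbours, listed for each process, showed no change of the depth seen from PICALM to ME3. Of 82 listed genes 75 were tested, and in DDX4-null cells 27 rose and 22 fell, with log2 changes from -1.22 to 2.56 and 0 at -4 or lower. The background for these counts and for each list below was 67.3% of all genes called, 35.0% rising and 32.3% falling. Of 29 tested clathrin endocytosis genes, the partners of PICALM, 13 rose and 8 fell in DDX4-null cells, with a median of 0.22. The endocytic adaptor DAB2 rose to 245 ± 16.8 CPM in DDX4-null cells, against 104 ± 7.83 CPM in control cells (edgeR adjusted p = 1.3e-09). The adaptor NUMB fell to 108 ± 8.11 CPM in DDX4-null cells, against 229 ± 7.69 CPM in control cells (edgeR adjusted p = 3.6e-09). The list moved in both directions.

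Of 18 complex I assembly genes, the group of TMEM126A and TMEM126B, 9 rose and 2 fell, with a median of 0.30. ECSIT, which takes part in that assembly, rose by a log2 change of 0.88 ± 0.11 (edgeR adjusted p = 1.4e-06). Of 8 tested RAB27 and synaptotagmin-like genes, 3 rose and 0 fell. They include the SYTL2 relatives SYTL4 at 2.19 ± 0.18 (edgeR adjusted p = 3.5e-09) and SYTL3 at 1.86 ± 0.16 (edgeR adjusted p = 4.8e-09). Both rose in the cells in which SYTL2 was lower.

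The list of membrane guanylate kinases, the family of DLG2, also held LIN7 genes, which are not of that family. Of its 10 tested genes, 1 rose and 6 fell, with a median of -0.32. LIN7B, at -1.22, was among those that fell. DLG3 fell by 0.91 on the log2 scale (edgeR adjusted p = 1.1e-07) where DLG2 was higher. Of 10 tested NADPH-making enzymes, 1 rose and 6 fell, with a median of -0.33. ME1, the cytosolic relative of ME3, fell to 69.5 ± 8.68 CPM in DDX4-null cells, against 157 ± 6.51 CPM in control cells (edgeR adjusted p = 7.3e-09). On the same log2 scale ME1 was at -1.18 and ME3 at -6.04.

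In tumors 2 of the 75 partner genes were called, where 2.09% of all genes were, and both fell. With an unadjusted p under 0.05 there were 10 lower and 7 higher partner genes by edgeR, where 21.3% of all genes passed that limit. AP2B1, a subunit of the AP-2 clathrin adaptor, averaged 164 ± 25.8 CPM in DDX4-null tumors and 238 ± 13.8 CPM in control tumors (log2 change -0.53 ± 0.11, edgeR adjusted p = 0.035). MTHFD1, a folate enzyme, averaged 154 ± 11.7 CPM in DDX4-null tumors and 204 ± 14.6 CPM in control tumors (log2 change -0.41 ± 0.089, edgeR adjusted p = 0.042). Neither gene was called without DDX4-null tumor 1, and 0 or 1 of the 75 was called whenever any single library was left out.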

How the data were processed

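The authors deposited a table of raw counts, with 20356 Ensembl IDs and 16 PC3 libraries, 4 in each of 4 groups, and the counts were used unchanged. Libraries were prepared from DNase-treated total RNA with a TruSeq Stranded mRNA kit, per the labels' protocols. The submitters' processing notes name Trimmomatic 0.39, STAR 2.7.10a, featureCounts 2.0.3 and the build GRCh37. The strand setting and annotation of the counting, and what became of host reads, were not given in the sources used here.

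Symbols came from a gene name table (19446 IDs) and GENCODE v29 (65 more), with 845 IDs unnamed. The order of genes was read from GENCODE v29 (GRCh38) by Ensembl ID, and promoters from RefSeq on GRCh38.p14. Each comparison of 8 libraries was fitted over all genes with edgeR 4.0.16 in R 4.3.3 (quasi-likelihood test, TMM scaling, filterByExpr, Benjamini-Hochberg adjustment at 0.05). Of the 10 genes 9 passed the filter on low counts, and CCDC83 did not. CPM are counts per 1000000 after TMM scaling, so a level is relative to the rest of its library. Shares of control have exact Clopper-Pearson 95% intervals. Reads carry no molecular identifiers, so intervals and the floor of 3 counts cover counting error only. Library totals per group were 16151344 to 21763745 in DDX4-null cells, 14368124 to 18836982 in control cells, 12204254 to 17961710 in DDX4-null tumors and 13480294 to 25443952 in control tumors.

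Named genes were the 10, other protein-coding genes between them, the nearest 5 tested genes past each edge, the 5 most like PICALM, and up to 4 genes of each partner list with the smallest monolayer p plus any called in tumors. PAK1, HEPHL1, CTSF, MUC5AC, MUC5B, NDUFC2, TAF1D and AMOTL1 were named after their values were seen, because they make up small counts. The genes, lists and limits were chosen with earlier results of these data known. No 2 replicates agreed within sampling noise (chi-square per degree of freedom 3.748 to 53.9 over 24 pairs). Alternatives were DESeq2 1.42.0, other size factors and filters, a model of all 16 libraries, a replicate block, other edge limits, centring on chromosome 11, and leaving out each library. The fits were tested on simulated counts. Some single-marker values are not reported here.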

Additional observations from a re-analysis of the deposited data

Results flagged for a closer look

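CREBZF was lower in DDX4-null than in control monolayer cells (log2 change -0.89) and higher in DDX4-null than in control tumors (0.45), with no overlap of the libraries in either setting, and the difference between the settings was not tested. DLG2 in DDX4-null cell library 3, at 4.67 CPM, lay apart from the other 3 DDX4-null cell libraries. CCDC83 in control cell library 3, at 0.11 CPM, lay apart from the other 3, which had 0 counts, and it rests on 2 counts. These were 2 of 40 groups checked for a library that stands apart, and chance marks about 1 in 20.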

How the results depend on the processing

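The block had 7 genes (SYTL2 to FZD4) with library totals, with an edge at 1 or 3 genes, with a filter at 5 CPM and under the replicate block, and 7 to 8 with any library left out. A limit of -0.5 gave 11 genes, TMEM126A to CTSC, and a limit of -1.5 or centring on chromosome 11 gave 6, PICALM to FZD4. Centring also turned TMEM126B to 0.01 and changed the direction of no other gene of the 10 or of the block. Called genes in tumors numbered 270 (127 rose and 143 fell), against 880 with DESeq2, 808 in the model of all 16 libraries and 26 to 289 on leaving out a library. Library totals gave 97 risen and 168 fallen genes in tumors, and 0 of the 10 genes called in place of 1. Leaving out a library gave 0 to 1. Called neighbours in tumors were 1, with DESeq2 2, and 0 to 2 on leaving out a library. Called partner genes in tumors were 2, and 0 to 1 on leaving out a library. The cause of these differences was not tested. Low counts limit CCDC83 and CCDC81.

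Whether the replicate numbers pair the libraries is not settled, since 4 libraries per group are too few to decide it. The correlation of same-numbered deviations was over 0.1 in 2 of 4 pairs in cells (-0.23 to 0.39). In tumors it was over 0.1 in 2 of 4 pairs (-0.058 to 0.20). Of the libraries, 3 of 8 in cells and 2 of 8 in tumors correlated best with their own number. The main fits used no pairing. The replicate block gave 425 called genes in tumors and left the count of called genes among the 10 at 1.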
